A study of Mus musculus with 6 samples.

Results

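The genes described here are 10 genes known to mark or govern blood stem and progenitor cells, namely Kit, Ikzf1, Myb, Myc, Prom1, Cd34, Flt3, Meis1, Runx1 and Hoxa9. They were followed in whole livers of mice at embryonic day 12.5. All probe sets that the array annotation assigns to 1 of these symbols alone were taken, which gave 15 probe sets of 12488 in all and 10 genes of 8251. The embryos came from matings of Rb heterozygous 129sv mice. Of these 3 were Rb null and 3 wild type, and each embryo had 1 Affymetrix mouse array. The labels give neither the structure of the Rb mutation nor the sex or litter of the embryos. The liver was taken whole after disaggregation, with no sorting of cells, so each value is a sum over all its cell types, and fewer cells of a type cannot be told apart from less RNA per cell. The comparison asks how transcript levels change in the liver when Rb is absent.

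The retinoblastoma protein holds E2F transcription factors in check and so restrains entry into the cell cycle, and mice without it become anaemic and do not survive to birth. At this age the liver is filled with erythroid cells that descend from a small pool of stem and progenitor cells. Kit, the receptor for stem cell factor, and Flt3, a related receptor tyrosine kinase, carry survival and growth signals in these early cells. Kit is lost as erythroblasts mature. Myb and Myc are transcription factors of dividing immature cells, Ikzf1 encodes Ikaros, a zinc finger factor of early and lymphoid blood cells, and Runx1, Meis1 and Hoxa9 are transcription factors of stem cells and early progenitors. Cd34 and Prom1 (CD133) encode surface proteins by which progenitors are isolated, although endothelium also makes Cd34 and several epithelia make Prom1.

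In Rb null livers 4 of the 10 genes were higher past the test, Kit, Ikzf1, Prom1 and Myb, and none was lower. Another 3, Flt3, Myc and Cd34, were measured but did not pass, and the remaining 3, Runx1, Meis1 and Hoxa9, were too dim to be tested. The mean signal of the brightest probe set was higher in Rb null livers for all 10 genes. Kit and Ikzf1 rose most, 1.69-fold and 1.64-fold, while Prom1 rose 1.24-fold and Myb 1.19-fold. Of all 5273 tested genes 13.1% were called higher, and of those whose mean signal lay within the range of the tested progenitor genes 13.8%, against 4 of 7 here. The median log2 change of the 7 tested progenitor genes was 0.28, beside 0.02 over all tested genes and 0.03 over the tested genes of that signal range. Counted by probe set, 4 of 9 tested progenitor probe sets were higher, beside 12.8% of all tested probe sets.

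Signals are MAS5 values on a linear scale, given as mean ± SD of 3 embryos. To each signal 50.02 was added before taking log2, and changes, given ± SE, are the Rb null mean less the wild type mean of these values. Folds are powers of these changes, so those of dim genes come out smaller than the ratio of signals. A probe set was tested where its mean signal over the 6 arrays exceeded 150.1, and a gene was called where limma's Benjamini-Hochberg adjusted p fell below 0.05. The brightest probe set stands for its gene, and signals of different probe sets are not comparable with each other. Precision is limited by having 3 arrays per genotype.

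The sequences just upstream of the 4 genes that rose are shown because these transcripts moved in the same direction. Each is the stretch of 250 bases before the start of the gene in RefSeq (build GRCm38.p6), taken at the most upstream start listed and read 5′ to 3′ on the strand of the gene. They are chr5:75574737-75574986 (plus strand) for Kit, chr11:11685675-11685924 (plus) for Ikzf1, chr10:21160985-21161234 (minus) for Myb and chr5:44101737-44101986 (minus) for Prom1. Capitals mark GGGCGG on either strand, the GC box bound by Sp1-like factors.
Kit: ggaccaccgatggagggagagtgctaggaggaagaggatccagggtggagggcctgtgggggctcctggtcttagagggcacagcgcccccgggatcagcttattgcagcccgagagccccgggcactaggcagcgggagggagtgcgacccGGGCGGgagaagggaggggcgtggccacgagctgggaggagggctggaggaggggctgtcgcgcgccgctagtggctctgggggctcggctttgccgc
Ikzf1: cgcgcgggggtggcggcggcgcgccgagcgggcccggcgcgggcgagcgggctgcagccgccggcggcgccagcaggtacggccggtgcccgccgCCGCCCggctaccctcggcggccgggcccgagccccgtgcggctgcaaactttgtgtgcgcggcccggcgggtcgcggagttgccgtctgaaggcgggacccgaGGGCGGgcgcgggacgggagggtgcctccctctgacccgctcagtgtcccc
Myb: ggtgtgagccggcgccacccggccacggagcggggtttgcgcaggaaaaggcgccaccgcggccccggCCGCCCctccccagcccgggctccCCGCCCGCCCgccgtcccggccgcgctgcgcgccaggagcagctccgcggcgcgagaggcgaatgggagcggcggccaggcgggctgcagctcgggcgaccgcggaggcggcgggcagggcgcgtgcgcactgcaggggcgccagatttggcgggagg
Prom1: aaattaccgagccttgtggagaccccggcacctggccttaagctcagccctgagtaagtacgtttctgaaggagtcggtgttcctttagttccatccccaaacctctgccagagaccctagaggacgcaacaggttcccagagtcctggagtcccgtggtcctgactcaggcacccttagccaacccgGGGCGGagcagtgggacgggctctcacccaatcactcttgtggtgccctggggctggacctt

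GC content was 70.8% for Kit, 82% for Ikzf1, 81.2% for Myb and 59.2% for Prom1, beside a median of 52.4% over all 32851 such windows. The GC box occurred 1 time for Kit, 2 times for Ikzf1, 3 times for Myb, where 2 of the matches overlap, and 1 time for Prom1. Hoxa9, whose groups overlapped, also held 1, so that 5 of the 9 windows listed for these genes had it, beside 32.7% of all windows. Sequences were listed for 9 of the 10 genes. Searched on both strands, the E2F forms TTTGGCGC, TTTCGCGC and TTTCCCGC were not in any of these 9 windows and were in 1.53% of all windows. Only these exact forms were searched, so near forms were not counted. The Myb window holds TTTGGCGG, which differs from TTTGGCGC in its last base. The GATA form AGATAA was also in none of the 9 and was in 9.99% of all. The E-box CACGTG, in 6.02% of all windows, was found for Runx1, and the Ets form CCGGAAGT, in 2.88% of all, for Meis1. These matches describe letters in a window and show no binding.

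Before the values, the arrays themselves: trimmed means of the 6 arrays were equal to within 500.22 and 500.25, since the deposited signals had been scaled. The median signal was 197 to 203 on Rb null and 176 to 186 on wild type arrays. Rb1, which the labels say is mutated, read 139, 142 and 127 in Rb null against 791, 754 and 706 in wild type livers (-2.10 ± 0.09, limma adjusted p = 7.8e-06), with no overlap. The sources used here do not state where its probes lie relative to the mutation. Scaling the arrays to equal medians instead moved the median change of all tested genes from 0.02 to -0.10 and the upward share of the calls from 57.9% to 25.1%. The changes of the progenitor genes under that scaling are given with each gene.

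Kit, the receptor that receives stem cell factor, had signals of 899, 880 and 846 in the Rb null embryos and 544, 412 and 546 in the wild type embryos (probe set 99956_at). Every Rb null embryo lay above every wild type embryo, and the lowest Rb null value was 299 units above the highest wild type value. The means were 875 ± 27 and 501 ± 76.9, a change of 0.76 ± 0.11 (limma adjusted p = 0.0024). Of the 6793 tested probe sets, 1.71% had a larger rise. Wild type embryo 2 was the lowest of the 6, and without it the change was 0.64. The Kit call held in all 18 alternatives, and the change was 0.63 after median scaling.

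Flt3, the receptor for the Flt3 ligand, is represented by a pair of probe sets. On the brighter (95295_s_at) the Rb null embryos read 807, 800 and 771 and the wild type embryos 634, 731 and 573. The groups did not overlap, but wild type embryo 2 lay within 41 units of the lowest Rb null value. The change of 0.28 ± 0.09 had a limma adjusted p = 0.056 and a 95% interval of 0.08 to 0.49. Without wild type embryo 2 it was 0.37 and passed (adjusted p = 0.020), and it also passed with the stricter signal filter (adjusted p = 0.047). On the dimmer probe set (95296_r_at) the groups overlapped, at 411, 377 and 398 against 317, 338 and 402 (0.15 ± 0.10, adjusted p = 0.32). The letters s and r in these names mark probes that may bind other transcripts or that broke a design rule, and no other Flt3 probe set was on the array.

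Prom1, the pentaspan membrane protein of the CD133 antigen, read 495, 532 and 515 in Rb null and 395, 411 and 406 in wild type livers (93389_at). The embryos of each genotype lay close together, with a gap of 83.7 units between the groups. Prom1 rose from 404 ± 8.15 to 514 ± 18.4 (0.31 ± 0.07, limma adjusted p = 0.019). The dimmer probe set 93390_g_at lay below the signal filter and showed no separation, with 139 ± 11.9 against 133 ± 21.8. Prom1 no longer passed after normalization by quantiles (0.23, adjusted p = 0.065), cyclic loess normalization (0.24, adjusted p = 0.057) and median scaling (0.19, adjusted p = 0.11), and with the mean of both probe sets (0.18, adjusted p = 0.17). It missed the threshold too when Rb null embryo 2 was left out (adjusted p = 0.066), and likewise for wild type embryo 1 (0.060) and 3 (0.055).

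Cd34, a sialomucin of progenitors and vessels, lay close to the signal filter. Its probe set 97773_at read 188, 198 and 255 in Rb null and 202, 145 and 184 in wild type livers, and 160358_at read 278, 203 and 169 against 185, 168 and 155. The groups overlapped on each, and the embryo with the highest value differed, being Rb null embryo 3 on the one and Rb null embryo 1 on the other. The changes were 0.21 ± 0.14 (limma adjusted p = 0.33, 95% interval -0.12 to 0.55) and 0.27 ± 0.16 (adjusted p = 0.27, -0.10 to 0.63). These intervals hold no change as well as changes as large as those of Prom1, so Cd34 was not shown to change or to stay the same.

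**Figure D1:**
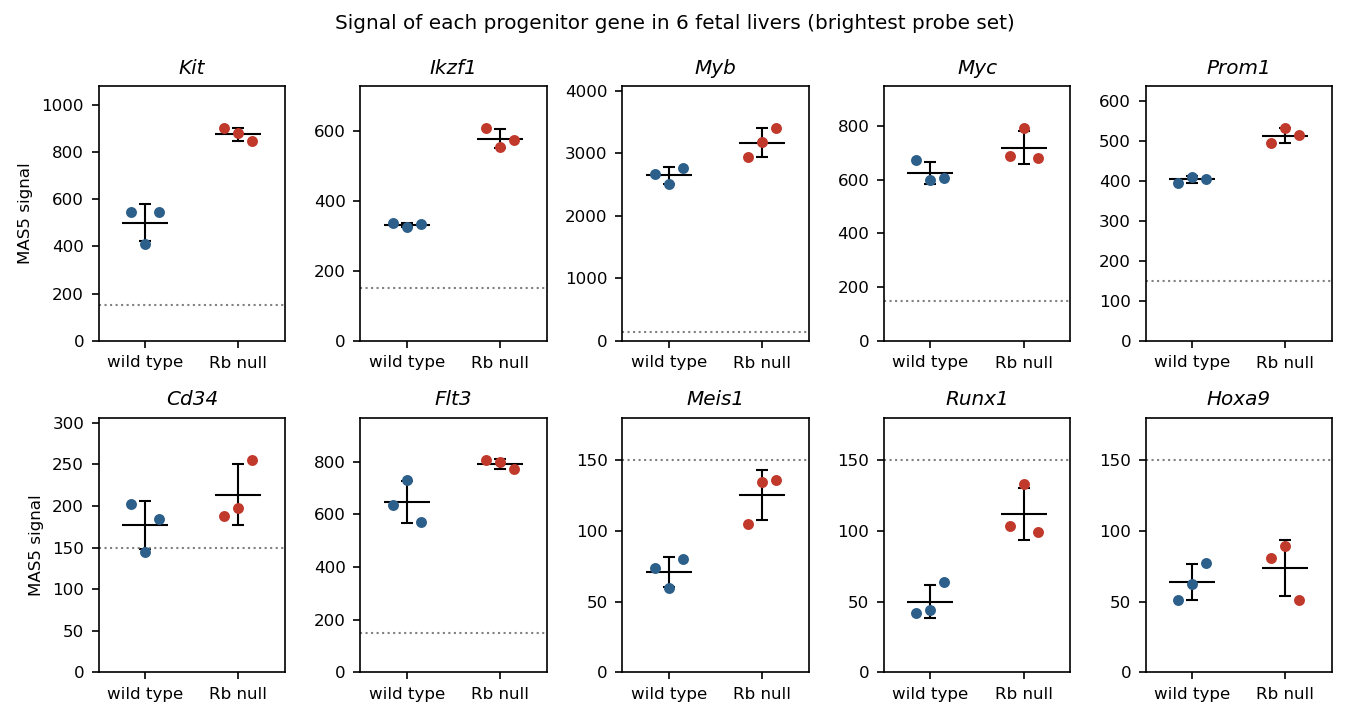
MAS5 signal (linear axis from 0) of the brightest probe set of each progenitor gene in the 3 wild type (blue) and 3 Rb null (red) livers, 1 point per embryo, with the mean as a horizontal line and the SD as error bars; the dotted line is the signal filter of 150.1. The groups are apart for 8 of the 10 genes and overlap for Cd34 and Hoxa9, and Meis1, Runx1 and Hoxa9 lie below the filter.

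Ikzf1, which encodes the Ikaros zinc finger protein, had signals of 606, 553 and 573 in Rb null and 336, 325 and 334 in wild type livers (102293_at). The wild type embryos lay within a range of a few percent of their mean, and the gap to the lowest Rb null embryo was 217 units. Ikzf1 rose from 332 ± 6.08 to 577 ± 27.1 (0.72 ± 0.08, limma adjusted p = 6.4e-04), and 2.08% of tested probe sets had a larger rise. The other Ikzf1 probe set, 102294_at, disagreed. It lay below the filter, with 118, 86.4 and 93.3 in Rb null against 100, 195 and 96.8 in wild type livers, so that the groups overlapped. Averaging both probe sets gave 0.24 (adjusted p = 0.19), and this ended the call, whereas each of the other 16 alternatives in which Ikzf1 was tested kept it. After median scaling the change was 0.59.

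Myb, a DNA-binding activator that immature blood cells need and that is switched off as they mature, was bright. Its probe set 92644_s_at read 2940, 3181 and 3397 in Rb null and 2671, 2506 and 2765 in wild type livers. The groups did not overlap, with 175 units between them. Myb rose from 2647 ± 131 to 3173 ± 229 (0.26 ± 0.07, limma adjusted p = 0.031). The call was lost after median scaling (0.12, adjusted p = 0.32), with no filter (adjusted p = 0.059), with no intensity trend (adjusted p = 0.063) and with the mean of the probe sets (0.16, adjusted p = 0.19). Leaving out embryos one at a time also ended it (adjusted p from 0.051 to 0.085), apart from Rb null embryo 1. By contrast the change was larger after quantile (0.35) and cyclic loess (0.34) normalization. The other Myb probe set, 162411_f_at, read between 2.5 and 7.5 on all 6 arrays and gives no usable level.

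Myc, a driver of growth and of ribosome production, read 687, 790 and 681 in Rb null and 674, 599 and 605 in wild type livers (104712_at). The groups were apart by only 7.3 units, between Rb null embryo 3 and wild type embryo 1. The change of 0.19 ± 0.08 did not pass (limma adjusted p = 0.15, 95% interval -0.01 to 0.38), and in all 18 alternatives it was positive and did not pass. Changes as large as those of Prom1 lie within that interval.

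Runx1, the core-binding factor that sets up blood stem cells in the embryo, lay below the filter in every liver. It read 103, 133 and 99.2 in Rb null and 42.3, 44.0 and 63.6 in wild type livers (92399_at), with a gap of 35.6 units between the groups. Meis1, a homeobox partner of Hox proteins, read 105, 135 and 136 against 73.5, 59.4 and 80.2 (98790_s_at), also without overlap. Hoxa9, a homeobox factor that acts together with Meis1, overlapped at 80.5, 89.1 and 51.2 against 51.4, 62.6 and 77.1 (92745_at). Signals at this level were not shown to be above background, and of the 1719 untested probe sets at least as bright as Hoxa9 19.7% had all Rb null above all wild type values (12% of all 5629 untested probe sets). The log2 difference was 0.70 for Runx1 and 0.53 for Meis1, but these sizes depend on the offset. They ran from 0.39 to 1.03 for Runx1 and from 0.32 to 0.74 for Meis1 between the larger and the smaller offset. With no filter Runx1 passed (limma adjusted p = 0.030), Meis1 did not (adjusted p = 0.062) and neither did Hoxa9 (0.11, adjusted p = 0.75).

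Read by embryo, the groups were apart with Rb null higher for 8 of the 10 genes, 6 of the 7 tested and 2 of the 3 untested, where 23.5% of all tested genes showed this. The highest value of each of the 7 tested genes was on an Rb null array, 3 times embryo 1, 2 times embryo 2 and 2 times embryo 3. The lowest value fell on wild type embryo 2 for 5 of the 7. For the 6 tested genes whose groups were apart, a highest value on an Rb null array follows from that. The share of all tested genes with such highest or lowest arrays was not counted. Summed over the 10 genes, the signal was 6909 to 7324 in Rb null and 5294 to 5634 in wild type livers, a sum in which Myb weighs most. Leaving out Rb null embryo 2, wild type embryo 1 or wild type embryo 3 left 2 of the 4 calls each time, those of Kit and Ikzf1. No progenitor gene was called lower in any of these fits.

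**Figure D2:**
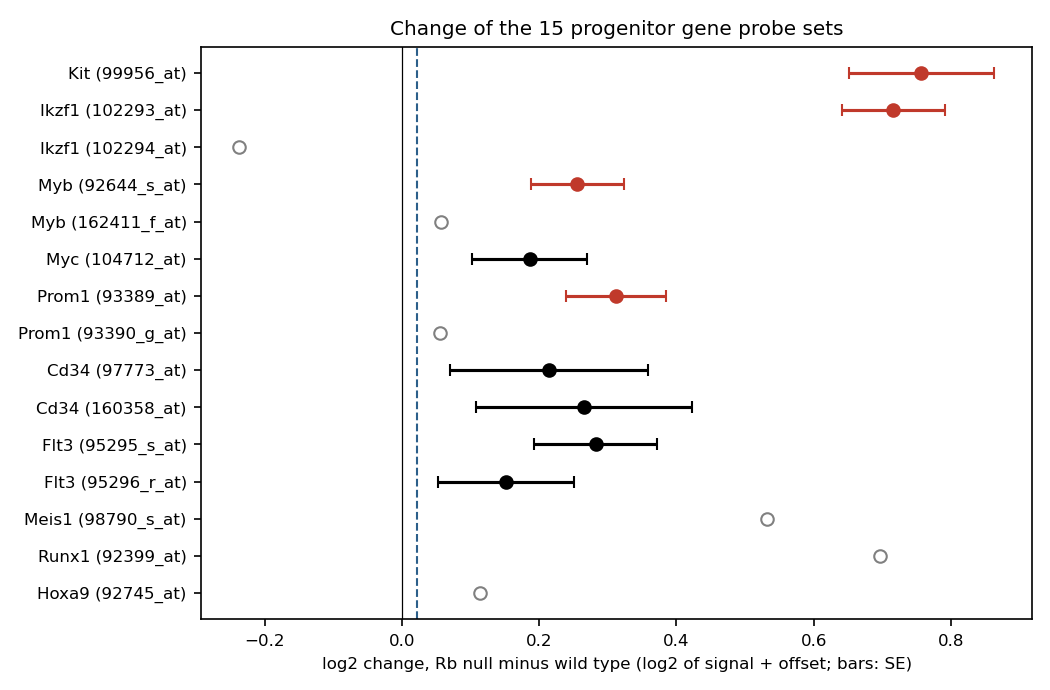
Log2 change (Rb null minus wild type, horizontal axis) of each of the 15 progenitor probe sets, with the SE as bars for the 9 that were tested (red where called higher, black where not past the test) and open grey circles for the 6 below the signal filter. The dashed line at 0.02 is the median of all tested genes; Kit at 0.76 and Ikzf1 at 0.72 lie farthest to the right, and the dim Ikzf1 probe set 102294_at at -0.24 lies to the left of 0.

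The arrays had been scaled to equal trimmed means, and other scalings lowered the changes of the progenitor genes, except that of Myb after quantile or cyclic loess normalization. Kit read 0.70 after quantile and 0.71 after cyclic loess normalization, and Ikzf1 0.63 and 0.64. Each of the 10 genes kept a positive difference under every scaling tried, although that of Hoxa9 shrank to 0.02 after quantile normalization and that of Myc to 0.06 after median scaling.

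**Figure D3:**
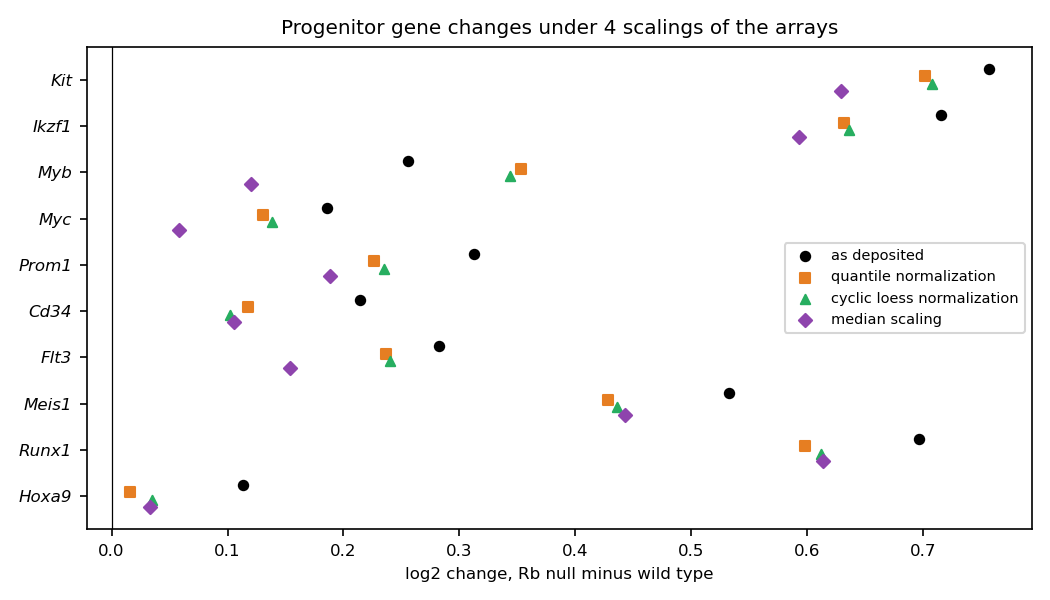
Log2 change (Rb null minus wild type, horizontal axis) of the brightest probe set of each progenitor gene, with the arrays as deposited (circles) and after quantile (squares), cyclic loess (triangles) and median (diamonds) scaling. All points lie above 0; Kit runs from 0.63 to 0.76, and Myb is the gene that quantile and cyclic loess normalization moved upward.

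The genes around Kit and Flt3, ligands and downstream signalling, were described from a list of 27, of which 20 were on the array and 17 were tested. Of these 6 were higher and none lower (35.3%, beside the 13.1% of all tested genes), with a median of 0.21. Kitl, the ligand of Kit made by stromal and other niche cells, rose from 735 ± 91.5 to 956 ± 52.5 (0.36 ± 0.09, limma adjusted p = 0.027). Grb10, an imprinted adaptor that binds receptor tyrosine kinases, rose from 349 ± 22.8 to 903 ± 28.3 (1.26 ± 0.07). The kinase gene Map2k1, which relays the signal to ERK, rose by 0.42 ± 0.08 and Inpp5d, the SHIP1 phosphatase that limits it, by 0.50 ± 0.14 (adjusted p = 0.036). Shc1 and Sh2b3 completed the 6. On leaving out single embryos 2 to 4 genes of the list were called, fewest without Rb null embryo 2 or wild type embryo 2. Kitl was lost without Rb null embryo 1 or 2 or wild type embryo 2 or 3 (adjusted p from 0.065 to 0.090), and Inpp5d without Rb null embryo 2 or 3 or wild type embryo 2 or 3 (adjusted p from 0.064 to 0.11). Averaging the probe sets of a gene ended the calls of Map2k1 (adjusted p = 0.075) and Inpp5d (0.17, adjusted p = 0.47), whose dim second probe set read -0.17, and took Grb10 to 0.76, which still passed. In addition, median scaling gave 2 calls in the list, quantile or cyclic loess normalization 3 and no filter 2.

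The other progenitor surface and receptor genes numbered 30, with 25 on the array and 14 tested. Here 5 were higher and 1 lower (median 0.24), beside 13.1% and 9.5% of all tested genes. Csf2ra, a receptor chain for the growth factor GM-CSF, rose from 114 ± 20.1, a dim level below the filter, to 216 ± 18.9 (0.70 ± 0.13, limma adjusted p = 0.0079). It was tested, and so counted among the 5, only through its Rb null mean. Notch1, the receptor of Notch signalling, rose by 0.68 ± 0.18 and Cd53, a tetraspanin of white blood cells, by 0.59 ± 0.14. Cxcl12, the chemokine that retains stem cells in their niche, rose from 723 ± 25.9 to 981 ± 59.8 (0.42 ± 0.07). The other riser was Csf1r. The gene that fell was Cd24a, a surface antigen shared with erythroid and lymphoid cells (-0.41). The Notch1 call was lost without Rb null embryo 2 or 3 or wild type embryo 2 or 3 (adjusted p from 0.070 to 0.078), and that of Cd53 without Rb null embryo 2 or 3 or wild type embryo 1 (adjusted p from 0.054 to 0.060). Notch1 also failed in each of the other scalings (adjusted p from 0.050 to 0.066) and with no filter (0.067). Cd53 failed after cyclic loess normalization as well (adjusted p = 0.051). The count of 5 higher was 3 without Rb null embryo 2, wild type embryo 2 or wild type embryo 3 and 2 without Rb null embryo 3. Median scaling or cyclic loess normalization gave 3.

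Genes that Myc is known to activate or repress did not follow the progenitor genes upward. Of 27 tested members of that list 11 were lower and none higher (beside 9.5% lower of all tested genes), with a median of -0.18. Odc1, which encodes the first enzyme of polyamine synthesis, fell from 3006 ± 226 to 1834 ± 30.9 (-0.70 ± 0.06, limma adjusted p = 4.2e-04). The nucleolar genes Nop2 (-0.51 ± 0.105) and Nop56 (-0.41 ± 0.06), which serve ribosome assembly, also fell. Gadd45a, which Myc is known to repress, fell too (-0.43 ± 0.07). On leaving out single embryos 6 to 9 genes of the list were called lower, with 6 without Rb null embryo 1, Rb null embryo 2 or wild type embryo 3 and 7 without wild type embryo 1. Quantile and cyclic loess normalization gave 7 lower and 1 higher each, and leaving out the intensity trend gave 6 lower. Odc1, Nop2, Nop56 and Gadd45a held in all 18 alternatives.

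Among 12 tested relatives and partners of Myc and Myb, 2 were higher and 1 lower (median -0.01), shares near the 13.1% and 9.5% of all tested genes. Mycl rose from 101 ± 33.1, below the filter, to 209 ± 42.4 (0.79 ± 0.19, limma adjusted p = 0.024), and was tested only through its Rb null mean. The Mycl call was lost without wild type embryo 3 (adjusted p = 0.051). Without Rb null embryo 2 or 3 Mycl fell below the filter and was not tested. Mycn rose by 0.44 ± 0.11. It failed the test in each of the other scalings and on removing Rb null embryo 1 or 3 or wild type embryo 1 or 2 (adjusted p from 0.063 to 0.090). Mybl2, the Myb relative of cycling cells, fell by 0.41 ± 0.09 where Myb rose. Its call was lost without Rb null embryo 2 or wild type embryo 1 or 3 (adjusted p from 0.051 to 0.055). Averaging its probe sets ended the call too (-0.135). Max, the obligate partner of Myc, read -0.02.

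Of 13 tested cofactors and relatives of Myb and Ikaros, which include subunits of the NuRD remodelling complex that Ikaros recruits, none passed in limma after adjustment (median -0.07), and 2 had an unadjusted p below 0.05. The smallest p values were those of Ctbp2 (0.29 ± 0.11, limma adjusted p = 0.11) and Chd4 (-0.19 ± 0.08, adjusted p = 0.12). The calls of this list depended on the scaling, since median scaling called 6 of the 13 lower. That scaling also called 1093 of all 5277 tested genes lower. Leaving out Rb null embryo 3 called 2 lower.

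Of 18 tested Runx1 partners and other stem cell transcription factors, 2 were higher and 3 lower (median 0.13), beside 13.1% higher and 9.5% lower of all tested genes. The higher share lies near that of all genes. The 3 that were lower are bright, and with the stricter signal filter 533 of 3119 tested genes were lower. Hhex (0.41 ± 0.11) and Sox17 (0.39 ± 0.10), factors that endothelium and hepatic endoderm also use, rose to 378 ± 37.3 and 332 ± 15.2. Lyl1 (-0.35 ± 0.05, limma adjusted p = 0.0035) and Lmo2 (-0.25 ± 0.05), members of the complex that Tal1 builds in erythroid and progenitor cells, fell, as did Tal1 itself. Cbfb, the partner subunit of Runx1, read 0.12 and Gata2 0.21, neither past the test. The other Lyl1 probe set read -0.17 ± 0.06 (adjusted p = 0.093), and the Lyl1 call ended without probe sets that carry a suffix letter (-0.17, adjusted p = 0.085). A further Lmo2 probe set went the other way, at 2442 ± 52.2 against 2269 ± 55.9 (0.10 ± 0.05, adjusted p = 0.18), and the Lmo2 call ended when both were averaged (adjusted p = 0.29) or Rb null embryo 1 was removed (adjusted p = 0.052). Sox17 was lost on leaving out any embryo but wild type embryo 3 (adjusted p from 0.064 to 0.085), and Hhex on leaving out any but Rb null embryo 1 and wild type embryo 3 (adjusted p from 0.070 to 0.105), so that no higher call was left without Rb null embryo 2 or 3 or wild type embryo 1. The count of 3 lower was 1 without Rb null embryo 1 and after quantile or cyclic loess normalization, and median scaling left no higher call.

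Hox genes and their TALE partners were mostly dim, with 18 of 27 on the array below the filter. Of the 9 tested, 2 were higher and none lower (median 0.27), beside 13.1% higher of all tested genes. Hoxa5 rose from 116 ± 22.7, below the filter, to 194 ± 20.7 (0.56 ± 0.14, limma adjusted p = 0.026), and Pbx2, a partner of Hox and Meis proteins, by 0.28 ± 0.07. Hoxa5 was tested only through its Rb null mean. Pbx2 failed the test whichever embryo was removed (adjusted p from 0.058 to 0.091), and Hoxa5 without wild type embryo 3 (adjusted p = 0.069). Quantile or cyclic loess normalization left no call, and without Rb null embryo 2 or 3 Hoxa5 fell below the filter and was not tested.

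**Figure D4:**
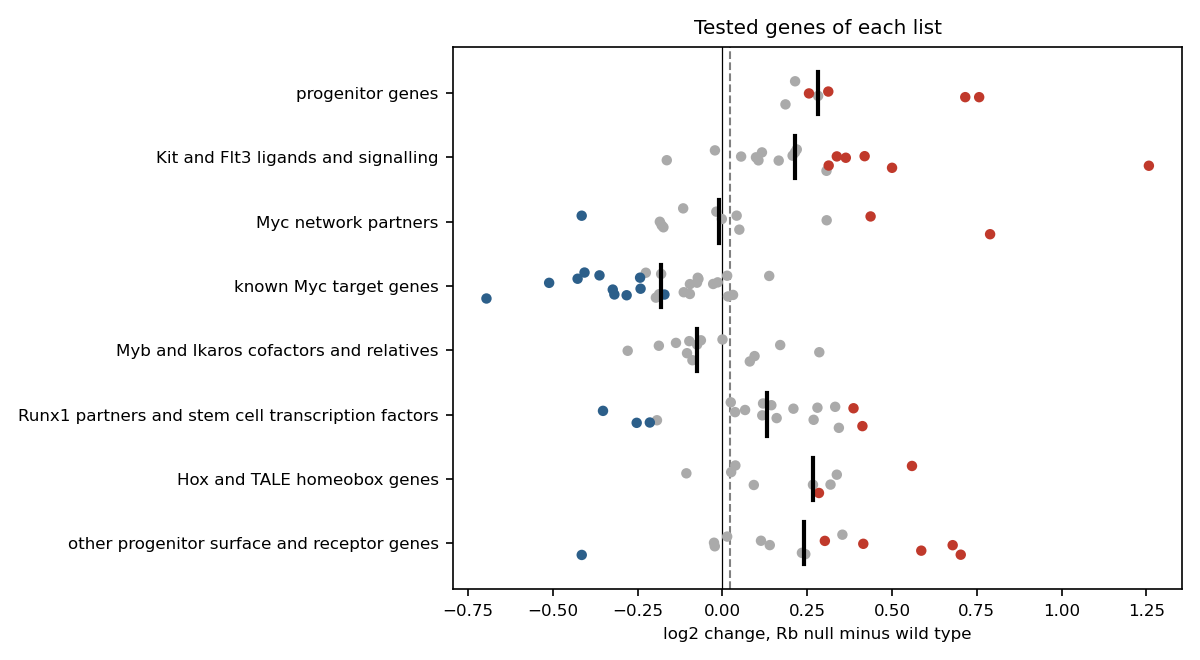
Log2 change (Rb null minus wild type, horizontal axis) of every tested gene of the progenitor set and of the 7 companion lists, 1 point per gene, red where called higher, blue where called lower and grey where not past the test. Black bars are list medians, from 0.28 for the progenitor genes to -0.18 for the known Myc targets, and the dashed line at 0.02 is the median of all tested genes.

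Several progenitor genes are shared with other cells of the liver, so markers of those cells were read in the same livers. Mast cells carry much Kit, and 10 of their 11 markers on the array lay below the filter, among them Cpa3, which averaged 78.7 without Rb and 109 in wild type livers. Their summed signal overlapped, at 557 to 783 against 608 to 764, and Hdc, the tested one, read 0.13 ± 0.11. The part of mast cells in the progenitor results was not tested. Lymphoid cells share Ikzf1 and Flt3, and 9 of their 11 markers were below the filter. Neither Rag1 (-0.12 ± 0.12) nor Cd79a (0.04 ± 0.13) passed, and the sums overlapped at 1080 to 1129 against 1004 to 1150.4.

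Endothelium shares Cd34, and some of its markers were higher in the same livers. Of 10 tested markers 5 rose and none fell, beside 13.1% higher of all tested genes. Among the 5 is Emcn, whose wild type mean of 136 lay below the filter and which was tested only through its Rb null mean of 231. The summed signal of the 11 on the array was 6430 to 7025 in Rb null against 4959.5 to 5173 in wild type livers. Vwf, the von Willebrand factor of endothelium and platelets, rose from 461 ± 23.1 to 910.2 ± 45.0 (0.91 ± 0.07, limma adjusted p = 2.3e-04), and Kdr, the VEGF receptor, from 242 ± 9.14 to 410 ± 6.64 (0.66 ± 0.08). The defining marker Pecam1 was below the filter. The part of endothelial cells in the progenitor results was not tested.

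Markers of myeloid and stromal cells were counted in the same way, beside the 13.1% higher of all tested genes. Of 4 tested megakaryocyte markers 3 rose, namely Gp5 (1.07 ± 0.12), Gp1bb (1.02 ± 0.11) and Vwf, which the endothelial list also holds, and the sums were 2557 to 2984 against 1539 to 1641. With the mean of all probe sets of a gene Gp5 read 0.56, its dim second probe set being at 0.06, and Vwf 0.56; both still passed. Of 8 granulocyte markers 5 rose, with Ltf at 0.77 ± 0.12 and S100a8 at 0.57 ± 0.05 (sums of 11794 to 11903 against 9079 to 9190.3). Of 8 macrophage markers 3 rose, namely Lyz2 (0.48 ± 0.10), Vcam1 (0.33 ± 0.06) and Csf1r, which was counted above as well, with sums of 5709.5 to 6118 against 5046 to 5289.5. Lyz2 did not pass when its probe sets were averaged (0.27, adjusted p = 0.084), nor Vcam1 after median scaling (0.20, adjusted p = 0.062). The macrophage scavenger receptor Marco, untested below the filter, was lower without overlap, at 88.0 against 165, and C1qc read -0.05. Of 8 mesenchyme and stellate markers 5 rose, with Col3a1 at 0.76 ± 0.07 and Postn at 0.48 ± 0.07 (sums of 13254 to 14808 against 10487 to 10905). Median scaling called 3 granulocyte, 1 macrophage and 3 mesenchyme markers, and the granulocyte count was also 3 without Rb null embryo 1. The part of these cells in the progenitor results was not tested.

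Of 12 tested hepatoblast markers 1 was higher, Hnf4a (0.49 ± 0.11), and 2 were lower, Alb and Apoa1 (-0.31 ± 0.07). Of all tested genes 13.1% were higher and 9.5% lower. The median change of the 12 was 0.11. The summed signal was 38833 to 41195 in Rb null against 41293 to 44743 in wild type livers. In that sum Alb, Dlk1 and Apoa1 weigh most, so it does not speak for the list as a whole. Without Rb null embryo 1, Rb null embryo 2 or wild type embryo 3 none was lower (Apoa1 adjusted p from 0.061 to 0.071), and without Rb null embryo 3 there were 3 higher; cyclic loess normalization gave 2 higher and 0 lower. The part of hepatoblasts in the progenitor results was not tested.

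Terminal erythroid markers went the opposite way to the progenitor genes. Of 13 tested, 11 were lower and none higher (median -0.55, beside 9.5% lower of all tested genes). These markers are bright, and with the stricter signal filter 533 of 3119 tested genes were lower. Bpgm, an enzyme of mature red cells, fell from 2403 ± 136 to 843 ± 62.9 (-1.46 ± 0.07), and Xpo7 by 1.27 ± 0.06. The summed signal was 61322 to 67451 in Rb null and 85312 to 91429 in wild type livers. The progenitor sum relative to the wild type mean was thus 125% to 133% in the embryos in which the erythroid sum was 68.8% to 75.6%. The part of the erythroid cells in the progenitor results was not tested.

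**Figure D5:**
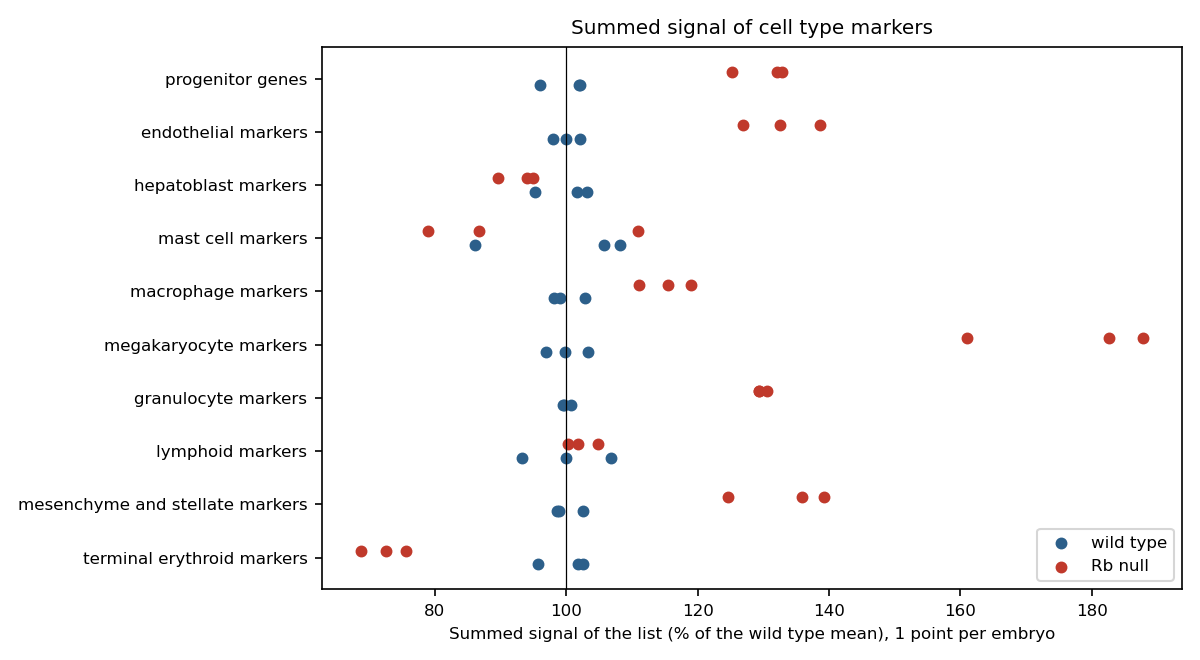
Summed MAS5 signal of the genes of each list on each array, as a percentage of the wild type mean of that list (horizontal axis), with 1 point per embryo, blue for wild type and red for Rb null. Progenitor genes lie at 125% to 133% in Rb null livers and terminal erythroid markers at 68.8% to 75.6%, while mast cell and lymphoid sums overlap between genotypes.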

How the data were processed

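Each of 6 fetal livers, 3 Rb null and 3 wild type, was read on 1 Affymetrix array. The authors deposited linear intensity values, the MAS5 signal of 12488 probe sets (66 of them controls), per the submitters' processing notes. MAS5's version and detection calls are not given in the sources used here. Array annotation gave 1 gene symbol to 10833 probe sets, several to 396 and none to 1193; RefSeq gene IDs matched 10817 of the 10833 and changed no symbol. From the deposited values, log2(signal + 50.02) was fitted with limma 3.58.1 in R 4.3.3 (intensity trend, no covariates) over the 6793 probe sets with mean signal above 150.1, and Benjamini-Hochberg adjustment ran over all of them at a threshold of 0.05. The fit code was run on simulated data whose spreads were shuffled over probe sets, which checks the code but not the intensity trend. The embryos are separate animals; litter and sex are not given. Alternatives were other scalings, offsets (10.00 and 150.1), filters (none and 500.2), trends, probe set rules, a replicate block and leaving out each embryo. Genes named were all progenitor probe sets, and those past the threshold with the largest change in each list (up to 4 for pathways, up to 2 for cell types), or the 2 of smallest p if fewer than 2 passed; others named were chosen after their values were seen, as was the GC box. The members and lists were chosen with earlier results of these data known.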

Additional observations from a re-analysis of the deposited data

How the results depend on the processing

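The calls of Kit and Ikzf1 held under every scaling, offset and filter in which they were tested and on leaving out each embryo; those of Prom1 and Myb did not. The count of progenitor genes called higher was 4 as reported, 2 after median scaling, 1 with the mean of the probe sets of a gene and 2 to 4 on leaving out single embryos, and 0 were lower throughout. Over all tested genes, 406 to 553 were higher and 257 to 428 lower on leaving out single embryos (690 and 501 with all 6), and 366 higher and 1093 lower after median scaling. The cause of these differences was not tested. With the replicate block 4 progenitor genes were higher. The labels do not say whether the numbers pair the embryos. Deviations of same-numbered embryos correlated at -0.06, 0.05 and 0.27, too few values to settle it. Without probe sets whose names carry a suffix letter Myb, Flt3 and Meis1 have no value, and with the stricter filter Ikzf1, Prom1 and Cd34 were not tested. Cd79a, at 0.04, changed sign after quantile normalization (-0.072), median scaling (-0.068) and cyclic loess normalization (-0.073). On leaving out single embryos it ran from -0.061 (without Rb null embryo 2) to 0.12 and was -0.0027 without wild type embryo 2.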
